A study of Rattus norvegicus with 4 samples.

Results

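The 10 genes described here encode chains of interleukin receptors: Il2rb, Il2rg, Il3ra, Il4r, Il6r, Il7r, Il10ra, Il10rb, Il13ra1 and Il17ra. They were found by matching the accession of every non-control probe on the array to the rat RefSeq gene table, and they form 10 of 16566 named genes measured. All 10 had a probe, 13 probes in all, with 1 probe for each of 7 genes and 2 probes for each of Il2rb, Il6r and Il13ra1. The cells were NR8383, a macrophage line started by lavage of a normal rat lung and grown as a mixture of adherent and floating cells. All 4 cultures, labelled as biological replicates and as having gone through 20 passages, were exposed to the carbon nanotube NM403 at 0.8 cm² per cm² for 4 h. Messenger RNA was measured on 1-colour Agilent arrays, 1 array per culture. Unexposed cultures were not analysed here, so no value below is a response to NM403, and no test between groups was made. The genes were chosen by their family, with the intensities and detection calls of these same arrays already known, so their levels are given as a description.

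Interleukin receptors are built from chains that are shared between cytokines. A ligand-specific chain such as the alpha chain of the interleukin 7 receptor pairs with a shared chain such as the common gamma chain, and the pair brings together JAK kinases that phosphorylate STAT transcription factors. The interleukin 17 receptors form a family of their own and signal through the adaptor Act1 instead. In macrophages the interleukin 4 and 13 receptors drive alternative activation, and the interleukin 10 receptor restrains inflammatory gene expression.

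Across the arrays, 45.9% to 50.8% of the 58717 non-control spots were well above background, the call that the scanner software Feature Extraction makes from the spot and its surroundings. Feature Extraction marked replicate 4 for evaluation, with 2 quality measures out of range, and found the other arrays in range. Each array held 308 negative control spots, of which 7 to 11 were called well above background. A level below is the log2 processed intensity of a probe minus the 75th percentile, on the same array, of the probes detected on all 4 arrays. A level describes 1 probe over the cultures and does not rank genes against each other. Over all 7937 genes whose brightest probe was detected everywhere, replicates 1 and 3 correlated at r = 0.996 and replicates 2 and 4 at r = 0.992, and the other pairs at 0.967 to 0.970. These are correlations across genes, which are not independent replicates. Of 11 macrophage marker genes, 9 were detected on all arrays, among them Cd68, Csf1r and Spi1, and Adgre1 and Marco on none.

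Of the 10 receptor genes, 9 were well above background on all 4 arrays and Il10ra on none. Over all named genes 47.9% were detected on all arrays, and since the 10 genes were chosen with these calls known, nothing is read from that gap. By probe, 10 of 13 were detected on all arrays, against 34.2% of all non-control probes, and 3 on none. The 13 all matched a named gene, while 24489 of the 45598 non-control probes matched none. The bases are thus unlike, and nothing is read from this gap either. Highest to lowest, 2 of the 9 detected genes ranged more than 2-fold between cultures, Il2rb and Il7r, beside 13.6% of all such genes. The median SD between cultures was 0.272 log2 units over the 9 genes and 0.234 over all 7937. The order turned with the scaling: the medians were 0.248 and 0.353 with the 75th percentile over all non-control probes, and 0.253 and 0.350 with their median. Replicate 1 gave the highest level for 6 of the 9 genes, and replicates 2 and 3 gave the lowest for 4 each. These counts rest on the array scaling, and the shares over all genes were not computed, so nothing is read from them.

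**Figure D1:**
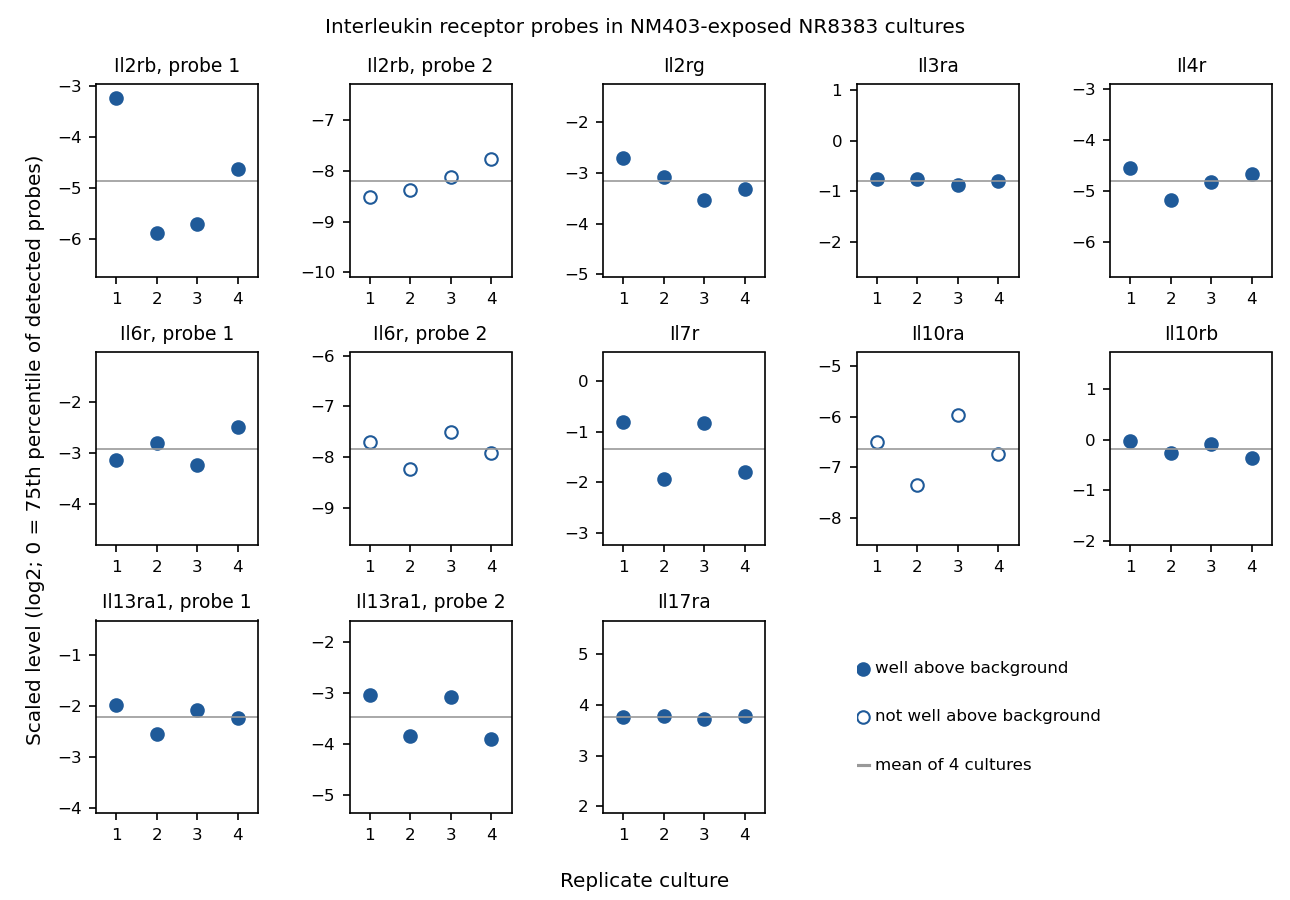
Scaled level (log2) of each of the 13 probes on each of the 4 replicate cultures, filled where the probe was well above background and open where it was not, with the mean as a line. Every panel spans the same number of log2 units around its own mean. Il2rb probe 1 and Il7r spread most among the detected probes, and Il3ra and Il17ra lie close to their means.

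The chains that use the common gamma chain come first. Il2rg encodes that chain, which the receptors for interleukins 2, 4, 7, 9, 15 and 21 share. It read -2.70, -3.08, -3.53 and -3.33 on replicates 1 to 4, with a mean of -3.16 ± 0.36 (SD, n = 4). Replicate 1 was the highest and replicate 3 the lowest, a 1.78-fold range, and the SD was 0.23 without replicate 1. Its processed intensity was 195 to 417, where the negative control spots had medians of 8.36 to 12.0, and at most 1 of 308 negative control spots on an array read as high.

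Il7r encodes the alpha chain of the interleukin 7 receptor, best known from developing and resting lymphocytes. It read -0.81, -1.93, -0.83 and -1.80 on replicates 1 to 4, a mean of -1.34 ± 0.60 (SD, n = 4) and a 2.16-fold range. Replicates 1 and 3 were high, replicates 2 and 4 were low, and no culture lay between. Between replicates 1 and 2, 697 of the 7937 genes differed more than 2-fold, as Il7r did. The size of the range depended on the scaling: it was 1.69-fold with the 75th percentile over all non-control probes, 1.85-fold with their median and 1.93-fold with quantile normalization. Without replicate 2 it was 1.98-fold. Il7, which encodes the ligand, was detected on all 4 arrays too, by 1 of its 2 probes. Its level was -0.39, -1.60, -0.32 and -1.76 on replicates 1 to 4, again high on replicates 1 and 3.

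The promoters of these 2 chains are shown because together they form the interleukin 7 receptor, a receptor with both chains detected on all 4 arrays. Each window runs from 250 bases before to 50 after the RefSeq start, and both come from the minus strand of rat assembly GRCr8, Il7r from chr2:60204868-60205167 and Il2rg from chrX:70438951-70439250. Capitals mark matches to any of 5 motifs searched on both strands.
Il7r: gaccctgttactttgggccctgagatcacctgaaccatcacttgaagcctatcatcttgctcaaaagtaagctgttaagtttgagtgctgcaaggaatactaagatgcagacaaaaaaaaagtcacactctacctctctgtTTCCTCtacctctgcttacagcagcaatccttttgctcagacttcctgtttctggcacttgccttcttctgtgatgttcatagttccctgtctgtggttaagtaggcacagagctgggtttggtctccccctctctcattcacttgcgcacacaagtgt
Il2rg: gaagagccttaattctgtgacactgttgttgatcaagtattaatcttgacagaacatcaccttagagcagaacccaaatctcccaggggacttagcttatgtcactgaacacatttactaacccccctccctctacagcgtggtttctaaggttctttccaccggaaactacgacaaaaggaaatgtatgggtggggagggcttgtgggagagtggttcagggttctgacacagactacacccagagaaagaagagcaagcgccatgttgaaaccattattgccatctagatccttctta
The Il7r window held 1 match, TTCCTC, the reverse complement of the core GAGGAA bound by ETS factors of the PU.1 type, and the Il2rg window held none. These 2 windows had 46.0% and 45.7% G and C bases, with 1 CpG in the Il7r window and 4 in that of Il2rg. The median over the 33469 promoters of the table was 51.7% G and C.

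Il2rb encodes the beta chain of the interleukin 2 and 15 receptors, which carries signal in T and NK cells. Its brighter probe read -3.22, -5.89, -5.71 and -4.62 on replicates 1 to 4, a mean of -4.86 ± 1.23 (SD, n = 4). Replicate 1 stood 2.65-fold above replicate 4, the next, and 6.34-fold above replicate 2, the lowest. In processed intensity this was 291 on replicate 1 and 42.5, 43.1 and 112 on replicates 2 to 4, and on those 3 arrays 6, 11 and 5 of 308 negative control spots read as high or higher. The probe had 1 spot per array. Around the spot on replicate 1, 0 of 24 neighbouring spots were raised 4-fold over the other arrays, with intensities below 50 set to 50. The mean over all non-control spots of that array was 0.227 raised neighbours, so nothing is read from the 0. With normexp background correction the range was 2.60-fold, and without replicate 1 it was 2.40-fold. The second Il2rb probe was above background on 0 of 4 arrays and read 7.42 to 12.6 in processed intensity, 0.88 to 1.06 times the median negative control. The probes of this gene therefore disagreed on whether it was detected.

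Markers of lymphocytes were looked at beside Il2rb and Il7r. Of 16 T cell and NK cell markers, 5 were detected on all arrays, Cd3d, Cd4, Lck, Nkg7 and Gzmb, and the other 11, among them Cd3e, Cd3g, Cd247, Cd8a, Cd2 and Ncr1, on none. The summed signal of the 5, in units of the scaling percentile, was 0.310, 0.427, 0.283 and 0.451 on replicates 1 to 4. The markers did not run alike: Lck was highest on replicate 2, Nkg7 on replicate 4 and Cd3d on replicate 1, and Cd4 ranged 1.11-fold. Of 5 B cell markers measured, 2 were detected on all arrays, with summed signals of 0.195, 0.159, 0.232 and 0.199 on replicates 1 to 4. Of these, Ebf1 read -3.02, -3.89, -2.99 and -3.71, higher on replicates 1 and 3 as Il7r was, and Pax5 was highest on replicate 4. Ptprc, the pan-leukocyte gene of CD45 and 1 of the 11 macrophage markers, read 2.16, 0.77, 2.11 and 0.81. The detected macrophage markers did not run alike. Csf1r and Itgam were also higher on replicates 1 and 3, while Cd68, Lyz2, Spi1, Fcgr3a and Mrc1 were higher on replicates 2 and 4. Siglec1 did neither. The part of lymphocytes in the levels of Il2rb and Il7r was not tested. In bulk RNA, fewer cells with a transcript and less of it per cell cannot be told apart.

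Il4r encodes the chain that binds interleukin 4 and serves in both interleukin 4 receptor types. It read -4.54, -5.17, -4.82 and -4.67 on replicates 1 to 4, a mean of -4.80 ± 0.27 (SD, n = 4). The SD was 0.15 with normexp background correction and 0.14 without replicate 2. All 4 readings were well above background, yet the processed intensity was 69.8 to 116, and 2 to 7 of 308 negative control spots per array read as high or higher. Il13ra1, which pairs with Il4r in the type II receptor for interleukins 4 and 13, had 2 probes detected on all arrays. The brighter read -1.98, -2.56, -2.08 and -2.25, a mean of -2.22 ± 0.26 (SD, n = 4), with replicate 2 lowest. That SD was 0.14 without replicate 2, and 0.12 to 0.15 with scaling on all non-control probes or with quantile normalization. The dimmer read -3.05, -3.84, -3.08 and -3.91, with an SD of 0.47, and placed replicate 4 as low as replicate 2. The probes thus placed replicates 1 to 3 alike and disagreed on replicate 4.

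**Figure D2:**
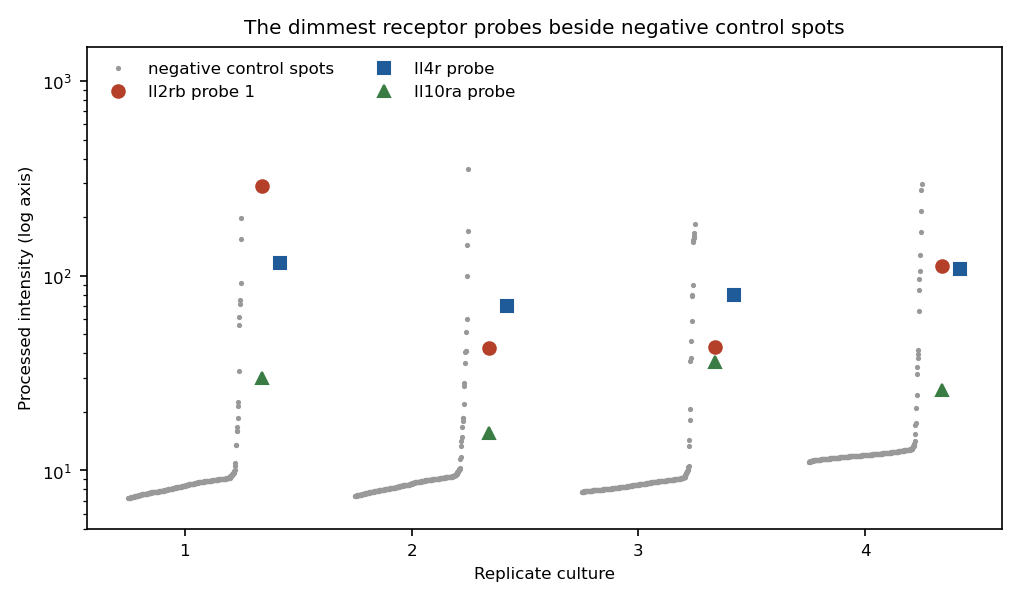
Processed intensity (log axis) of the 308 negative control spots of each array in ascending order, with the Il2rb probe 1, Il4r and Il10ra readings of the same array beside them. Most negative controls lie near 10 while a few reach the intensities of these 3 probes. Il2rb on replicate 1 lies above all of them.

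Il3ra encodes the interleukin 3 receptor alpha chain. It read -0.75, -0.75, -0.87 and -0.80 on replicates 1 to 4, a mean of -0.80 ± 0.05 (SD, n = 4) and a range of 1.08-fold. Replicate 3 was slightly below the others. That narrow spread depended on the scaling: with the 75th percentile over all non-control probes the SD was 0.24, with quantile normalization 0.10, and without replicate 3 it was 0.03. Csf2rb, the shared beta chain that Il3ra pairs with, was well above background on 0 of 4 arrays. A looser call of Feature Extraction, a signal positive and different from background, passed it on all 4. Csf2ra, another alpha chain that uses it, was detected on all arrays at -0.12 ± 0.02 (SD, n = 4).

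Il6r encodes the chain that binds interleukin 6 before the shared transducer gp130 joins. Its brighter probe read -3.15, -2.81, -3.23 and -2.49 on replicates 1 to 4, a mean of -2.92 ± 0.34 (SD, n = 4). Replicate 4 was highest and replicate 3 lowest, a 1.68-fold range, and the SD was 0.22 without replicate 4. The range was 2.18-fold with the 75th percentile over all non-control probes, 2.00-fold with their median and 2.10-fold with quantile normalization. The second probe, which carries the accession of a predicted transcript, was well above background on 0 of 4 arrays and passed the looser call on 2. Il6st, the gene of gp130, was detected on all arrays at -1.42 ± 0.25 (SD, n = 4).

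The interleukin 10 receptor chains differed in detection. Il10rb, a chain also used by receptors for interleukin 22 and interferon lambda, read -0.02, -0.27, -0.09 and -0.37 on replicates 1 to 4, a mean of -0.19 ± 0.16 (SD, n = 4). The SD was 0.08 with the 75th percentile over all non-control probes. Its processed intensity of 2092 to 2669 lay above every negative control spot. Il10ra encodes the ligand-binding chain, and its only probe passed the background call on 0 of 4 arrays. Its processed intensity was 29.8, 15.5, 36.3 and 25.9 on replicates 1 to 4, and 8 to 17 of 308 negative control spots per array read as high or higher. Under the looser call Il10ra likewise passed on all 4 arrays.

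The 2 promoters are shown because 1 chain of the receptor was detected throughout and the other was not. The windows are as above in GRCr8, Il10rb from the plus strand at chr11:44132386-44132685 and Il10ra from the minus strand at chr8:54474737-54475036, with motif matches in capitals.
Il10rb: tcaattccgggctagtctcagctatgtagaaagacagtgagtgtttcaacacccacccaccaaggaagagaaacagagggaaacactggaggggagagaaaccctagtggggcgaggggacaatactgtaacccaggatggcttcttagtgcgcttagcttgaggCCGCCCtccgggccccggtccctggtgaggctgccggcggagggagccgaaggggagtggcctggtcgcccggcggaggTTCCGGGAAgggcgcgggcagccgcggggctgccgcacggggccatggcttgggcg
Il10ra: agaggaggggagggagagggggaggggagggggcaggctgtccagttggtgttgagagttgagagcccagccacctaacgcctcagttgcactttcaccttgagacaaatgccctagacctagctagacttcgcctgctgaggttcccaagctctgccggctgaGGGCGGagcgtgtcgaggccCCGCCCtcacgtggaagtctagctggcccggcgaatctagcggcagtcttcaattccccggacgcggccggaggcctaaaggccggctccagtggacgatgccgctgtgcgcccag
The Il10rb window held TTCCGGGAA, a match to the STAT motif TTCNNNGAA, and 1 GC box of the SP1 type (GGGCGG or its reverse complement). The Il10ra window held 2 GC boxes. G and C bases made up 64.7% of the first and 64.3% of the other, with 20 and 19 CpGs. Promoters of 8 of the 10 genes were in the table, those of Il2rb and Il17ra not being among them. A GC box was in 6 of the 8, against 33.1% of all promoters. GAGGAA was in 2 (Il6r and Il7r), against 27.6%, and TTCNNNGAA in 1, against 8.87%. The AP-1 motif TGANTCA and the TATA box TATAAA were in 0 of 8, against 7.33% and 14.2%. Matches to different motifs could overlap, and they describe letters in these windows and not binding.

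Il17ra encodes the chain that most receptors of the interleukin 17 family share. Its probe was printed 10 times, 9 spots per array were kept, and it read 3.77, 3.77, 3.73 and 3.78 on replicates 1 to 4, a mean of 3.76 ± 0.02 (SD, n = 4). In processed intensity the spot mean was 29938 to 38221, and no spot was saturated. Within an array single spots had an SD of 0.029 to 0.044 log2 units, which covers noise within an array only. The SD between cultures depended on the scaling and was 0.23 under the 75th percentile over all non-control probes and 0.15 under quantile normalization, and 0.01 without replicate 3.

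**Figure D3:**
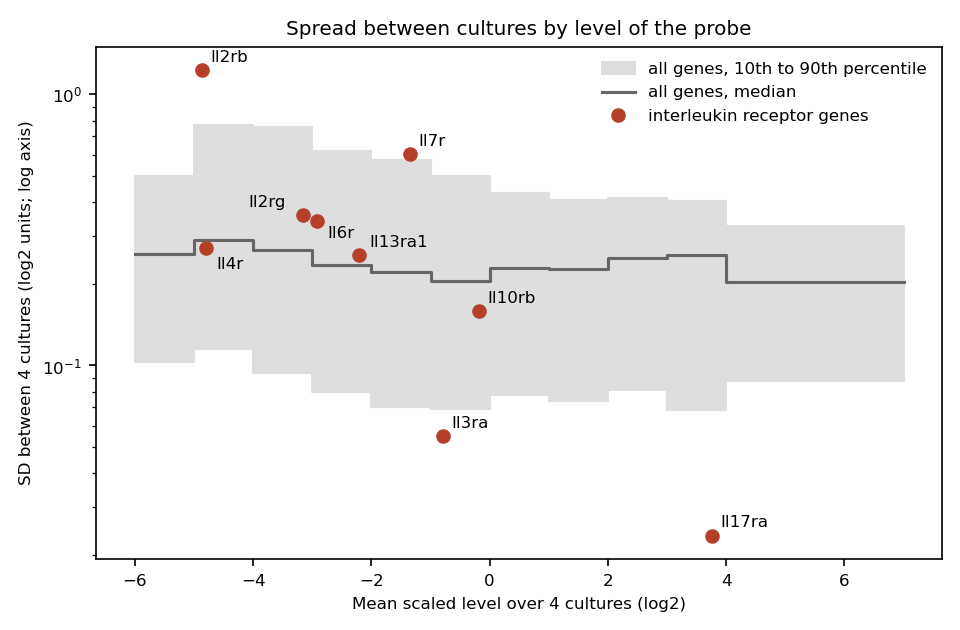
SD between the 4 cultures (log2 units, log axis) against mean scaled level for the 9 detected receptor genes, over the median and the 10th to 90th percentile of all 7937 genes in bands of level. Il2rb and Il7r lie above the 90th percentile of their bands and Il3ra and Il17ra below the 10th under this scaling. The other 5 lie between.

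Partner chains completed some receptors and not others. Of 14 listed receptor complexes that hold at least 1 of the 10 chains, 5 had every chain detected on all 4 arrays. They were both interleukin 4 receptor types and the receptors for interleukins 6, 7 and 17A. The call on both interleukin 4 receptor types rests on the dim Il4r probe. The other 9 of the 14 did not have every chain detected. For 1 of them, the interleukin 15 receptor, this was undetermined: Il15ra had no named probe, and Il2rb and Il2rg were detected on all arrays. The interleukin 2 receptor was listed as 3 chains, with Il2ra the only 1 not detected. The list was not exhaustive. It left out the pairs of Il7r with Crlf2, for TSLP, and of Il17ra with Il17re, for interleukin 17C. Each of these genes was detected on all 4 arrays. Among the partners not detected on all arrays were Il2ra, Csf2rb, Il10ra, Il21r, Il22ra1, Ifnlr1 and Il17rb, none of them well above background on any array. Il9r was detected on 2. Csf2rb and Il10ra passed the looser call on all 4 arrays, so the receptors for interleukins 3 and 10 would be complete under it. Of 33 measured receptor chains outside the 10, 10 were detected on all arrays: Il1rap, Il6st, Il17rc, Il17re, Il20rb, Crlf2, Csf2ra, Ifnar1, Ifngr1 and Ifngr2. Their median SD was 0.158, and Il20rb alone ranged more than 2-fold, by 2.18-fold.

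**Figure D4:**
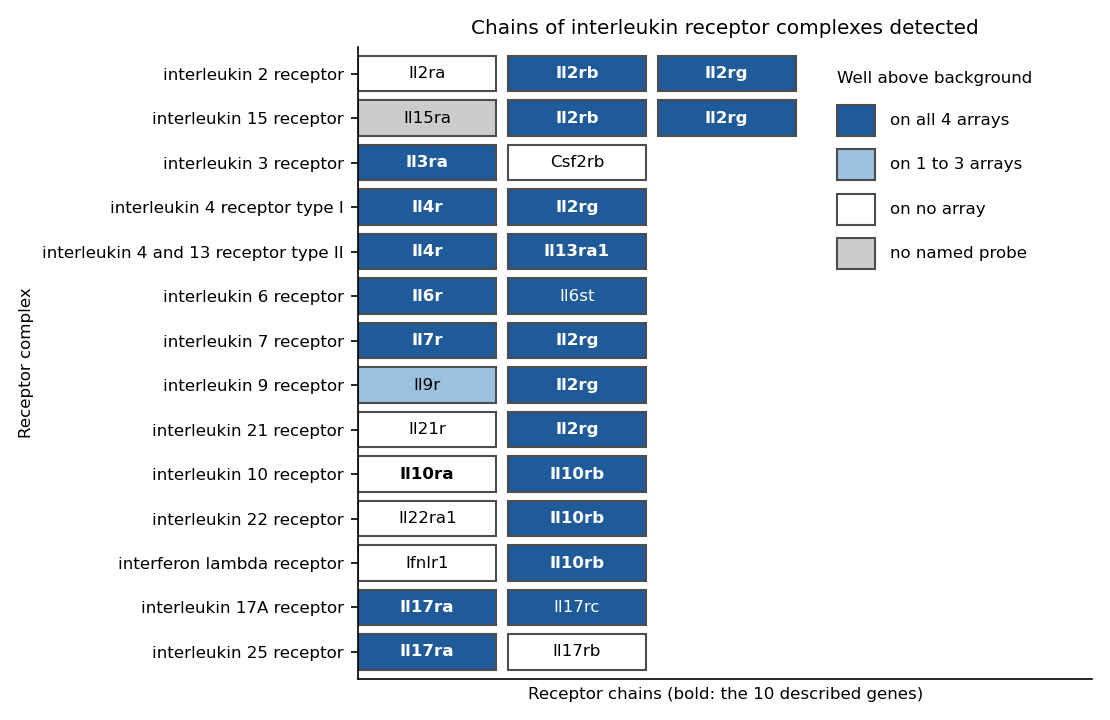
Chains of 14 interleukin receptor complexes, coloured by the number of arrays on which any probe of the gene was well above background. The 10 described genes are in bold, and 5 of the 14 listed complexes have every chain detected on all 4 arrays.

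Of 15 ligand genes measured, Il7 was detected on all arrays and the other 14 on none. Of 21 genes of signal transduction, 17 were detected on all arrays and 4 on none: Jak3, Stat4, Socs1 and Irs1. Jak3, the kinase that binds the common gamma chain, was thus not detected where Il2rg was. Jak1, which binds Il2rb, Il4r, Il7r and Il10ra, had a level of 1.70 ± 0.12 (SD, n = 4), Jak2 of -2.22 ± 0.37 and Tyk2 of -2.39 ± 0.13. Stat6, which interleukin 4 activates, had a level of -2.13 ± 0.39 and ranged 1.76-fold, and Stat3, which serves interleukins 6 and 10, of -0.64 ± 0.20. Traf3ip2, the gene of Act1, had a level of -1.39 ± 0.19. None of the 17 ranged more than 2-fold between cultures.

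Genes with the most similar profile over the 4 cultures were sought for the 2 genes above 2-fold, by the root mean square distance between deviations from each gene's own mean. For Il7r, Smc3 (distance 0.0117) and Chmp5 (0.0178) came nearest among 7928 genes, and 246 genes lay within 0.1. For Il2rb the nearest were Slfnl1 (0.365) and Fut11 (0.551), and 0 genes lay within 0.1. With 4 cultures such distances describe these arrays only.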

How the data were processed

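Total RNA of the 4 cultures was hybridised to 1-colour Agilent arrays. The deposited values are a scanner intensity for each spot. The software was Agilent Feature Extraction, version 11.0.1.1, as the submitters' processing notes give it. The deposited intensity was background-subtracted and detrended array by array, with no step between arrays, per the file headers. The deposited flags of Feature Extraction were used as given, including its well-above-background call. Other units were computed here: log2 levels came from the deposited intensity.

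Control spots and outlier spots (623 to 1016 per array) were left out, and spots of a probe were averaged as log2. Detection of a probe on an array required that more than 50% of its kept spots be well above background, and a gene counted as detected where any probe did. A gene took the level of its brightest probe. Because 34.2% of probes were detected on all arrays, each array was scaled on the 75th percentile of those. Of 45598 probes, 21109 matched 1 gene symbol in the RefSeq table of GRCr8 by unversioned accession, 0 matched several and 24489 none. The array design names another build, so no array coordinates are given. Python 3.11.15 and limma 3.58.1 were used, and the computation was tested on simulated data with known array differences. The 10 genes, lists and measures were chosen with earlier results of these data known, and the table of receptor complexes and the motifs were added, from textbook knowledge, after values were seen. The named genes were the 10 members, listed partner genes, and the 2 nearest profiles of members above 2-fold. The arrays give no counts, so the number of arrays limits the precision.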

Additional observations from a re-analysis of the deposited data

How the results depend on the processing

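No paired analysis was possible because there was 1 group. Naming probes by a gene name column could not be run, since the deposited data held no such column. The normexp correction took the median intensity of each spot. The number of receptor genes detected on all arrays was 9, and 10 with the looser call. It was 7 with the 99th percentile of the negative controls as threshold, which drops Il2rb and Il4r. Over all 16566 named genes the counts were 7942, 9725 with the looser call and 6538 with that threshold, so they moved the same way. The number of genes above 2-fold was 2, and 1 to 2 when each replicate was left out in turn: 1 without replicate 2, where Il7r ranged 1.98-fold. It was 3 with the looser call, which adds Il10ra, and with the negative control threshold Il7r alone ranged that far among the genes detected. It was 2 with scaling on all non-control probes, by percentile or median, and with quantile normalization, but there Il6r took the place of Il7r. Over all genes the count above 2-fold moved too. It was 1079, and 912 to 948 when each replicate was left out in turn. It was 2060 with the looser call, under which more genes were counted, 1470 with that percentile, 1857 with the median and 1058 with quantile normalization. The SD moved by over 1.5 times for 6 of 9 genes with that percentile, 4 with quantile normalization, and 3 each with the median and with normexp. The dim probes of Il2rb, Il4r and Il10ra limit what can be said of those genes.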

Other observations

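Among the other receptor chains, 3 were detected on some arrays only: Il1rl1 and Il9r on 2 and Il12rb2 on 1. Crlf2, the receptor chain of the epithelial cytokine TSLP, had a level of 2.68 ± 0.30 (SD, n = 4), and Il17re, a chain of the interleukin 17C receptor, of 0.32 ± 0.09. The interferon gamma receptor chains Ifngr1 and Ifngr2 had levels of 2.15 ± 0.28 and 0.19 ± 0.19. Of 8 mast cell, basophil and eosinophil markers, 0 were detected on all arrays and 2 on some. Of 6 neutrophil markers measured, Camp and Lcn2 were detected on all arrays, S100a8 on 1, and Elane, S100a9 and Csf3r on none.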
